A study of Mus musculus with 9 samples.

Results

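The collagen genes of the mouse were followed through 9 RNA libraries from brain tissue. Members were taken by name, as every row of the deposited table whose RefSeq identifier maps to a symbol of the form Col, number, a, number. This gave 44 collagen genes, carried by 54 of the 33299 transcripts and making up 44 of 23798 genes. The 9 libraries formed 3 equal groups. WT (wild-type) animals received placebo, and animals of genotype TG received either placebo or NM-101. By its title the series concerns neuronal alpha-synuclein and oligodendrocytes, and the labels give the cell type as oligodendrocyte and the tissue as brain. They do not name the transgene, its promoter, the age of the mice or the nature of NM-101, and they do not say that the libraries came from separate animals. P-values therefore measure the spread between these libraries, which may be technical.

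Collagens are matrix proteins whose chains, rich in glycine and proline, wind around each other into a helix and are secreted into the extracellular space. Fibrillar collagens build the rope-like fibres of connective tissue, type IV collagen forms the sheet of the basement membrane, type VI forms beaded microfilaments beside it, and the fibril-associated collagens (FACITs) attach to the surface of fibres. A further group is anchored in the cell membrane and includes collagens made by neurons. In the brain, fibrous collagen is largely a product of the meninges and the vessel wall, and type IV collagen surrounds every vessel.

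The 3 WT columns hold counts, with totals of 10612290 to 14041951 a library. The 6 TG columns hold log2 values, read here as log2(FPKM + 1), where FPKM is reads scaled to transcript length and library size. Steps in the low values imply between 9150000 and 12920000 reads in the TG libraries. WT counts were brought to the same form as log2(RPKM + 1) with GENCODE lengths, but the 2 kinds of column were normalized separately, so no test was made between WT and TG. Markers of oligodendrocytes were abundant in all libraries, with summed levels of 10.61 to 12.26 on the log2(sum + 1) scale, and so were markers of neurons, at 11.36 to 11.68. In bulk tissue, fewer cells of a type and less RNA per cell cannot be told apart.

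Collagen counts were a small part of each WT library, at 211.5 ± 53.7 CPM (counts scaled to library total; SD, n = 3). The membrane-bound class held 32.2% of the 7542 WT collagen counts, mostly from Col25a1, the FACITs 20.8%, type IV 18.6%, the fibrillar class 16.5% and type VI 5.7%. Of the 44 genes, 40 were counted in all 3 WT libraries and stood above 0 in all 6 TG libraries. The other 4 were Col10a1, Col17a1, Col28a1 and Col6a6, with 1, 11, 7 and 6 WT counts in all. Only 13 members reached the mean of 1 on the log2(FPKM + 1) scale over the 6 TG libraries that was set for testing. Of these, Col16a1 (0.88) and Col5a1 (0.52) had NM-101 means under 1 and so passed through the placebo libraries alone. Just above the limit stood Col5a1 at 1.04, and just below it Col8a2 at 0.97.

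**Figure D1:**
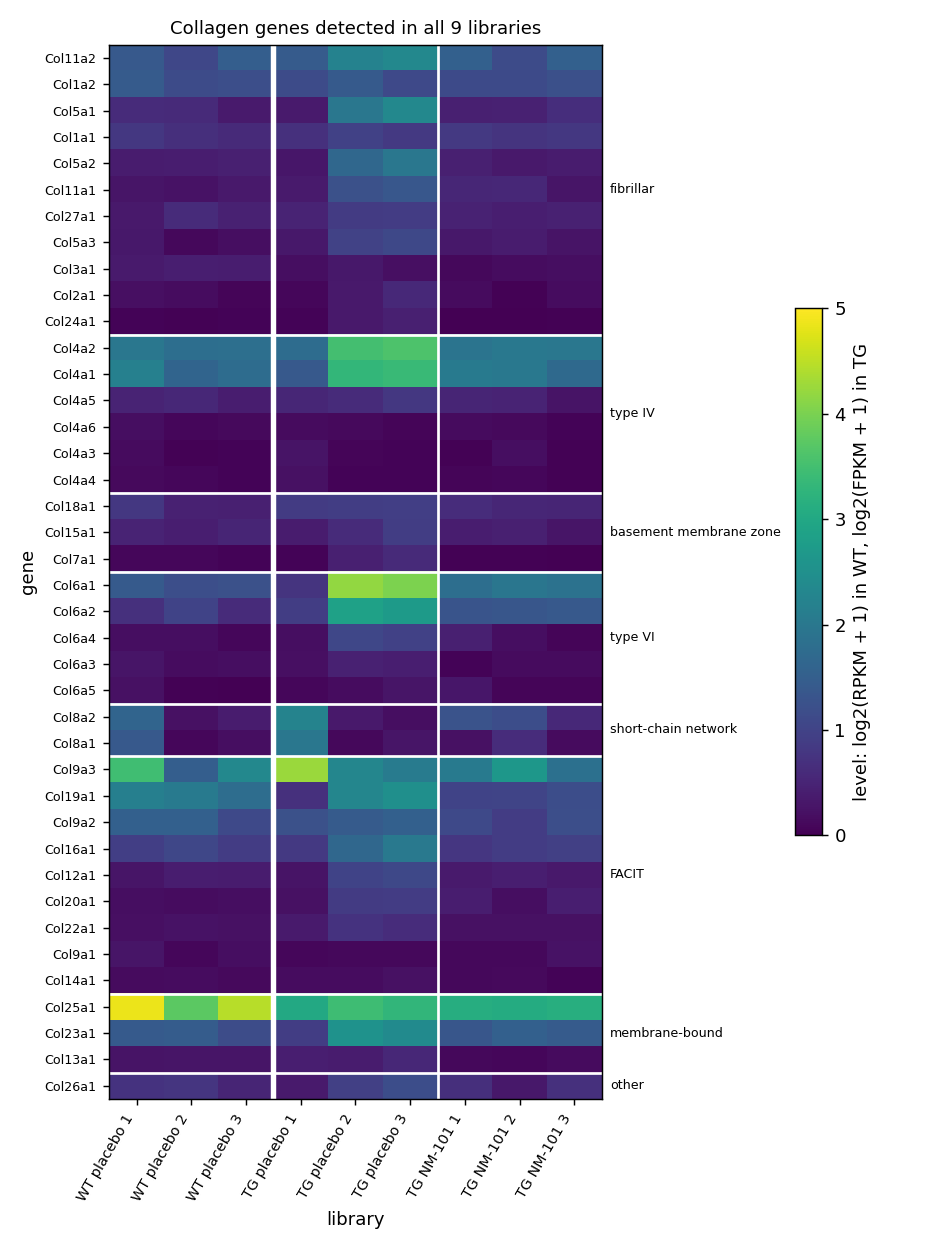
Level of the 40 collagen genes detected in all 9 libraries, by class (rows) and library (columns). Colour gives log2(RPKM + 1) for WT and log2(FPKM + 1) for TG, which were normalized separately. TG placebo replicates 2 and 3 are bright for Col6a1, Col4a1 and Col4a2, and TG placebo replicate 1 for Col9a3 and Col8a2.

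The start regions of 6 members are shown because these genes fall into the 3 patterns described here: Col6a1, Col6a2 and Col5a1 stood high in TG placebo replicates 2 and 3, Col8a1 and Col8a2 in TG placebo replicate 1, and Col3a1 was low throughout. Sequences are from RefSeq on GRCm38.p6, 5′ to 3′ on the gene's strand, cut to the longest stretch of the 250 bases before the annotated start that lies outside GENCODE exons and the gene's RefSeq span. Capitals mark GGGCGG (the GC box), CCAAT and TATAAA on either strand.
Col6a1 (chr10:76726169-76726294, minus strand): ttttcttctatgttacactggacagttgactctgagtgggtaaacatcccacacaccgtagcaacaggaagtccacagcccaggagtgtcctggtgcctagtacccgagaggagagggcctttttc
Col6a2 (chr10:76623631-76623880, minus strand): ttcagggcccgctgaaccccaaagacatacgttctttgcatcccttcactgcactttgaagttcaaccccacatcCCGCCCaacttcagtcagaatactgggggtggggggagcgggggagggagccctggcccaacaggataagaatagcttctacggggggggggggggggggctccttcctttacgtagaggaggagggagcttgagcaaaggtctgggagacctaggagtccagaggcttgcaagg
Col5a1 (chr2:27886175-27886380, plus strand): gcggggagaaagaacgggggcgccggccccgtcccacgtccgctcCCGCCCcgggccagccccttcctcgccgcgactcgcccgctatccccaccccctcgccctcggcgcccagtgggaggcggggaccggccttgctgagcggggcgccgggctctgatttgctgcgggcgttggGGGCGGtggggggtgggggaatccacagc
Col8a1 (chr16:57754738-57754987, minus strand): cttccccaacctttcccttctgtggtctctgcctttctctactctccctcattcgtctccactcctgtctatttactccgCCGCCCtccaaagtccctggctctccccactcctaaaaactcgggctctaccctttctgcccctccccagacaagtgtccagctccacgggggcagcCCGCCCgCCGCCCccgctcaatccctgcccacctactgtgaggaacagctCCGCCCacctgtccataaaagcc
Col8a2 (chr4:126286544-126286792, plus strand): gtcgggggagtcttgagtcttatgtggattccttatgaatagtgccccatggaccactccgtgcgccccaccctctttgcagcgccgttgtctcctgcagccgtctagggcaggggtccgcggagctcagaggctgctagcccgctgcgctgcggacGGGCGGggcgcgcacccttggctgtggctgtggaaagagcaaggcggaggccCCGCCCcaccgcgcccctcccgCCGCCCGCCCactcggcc
Col3a1 (chr1:45311288-45311537, plus strand): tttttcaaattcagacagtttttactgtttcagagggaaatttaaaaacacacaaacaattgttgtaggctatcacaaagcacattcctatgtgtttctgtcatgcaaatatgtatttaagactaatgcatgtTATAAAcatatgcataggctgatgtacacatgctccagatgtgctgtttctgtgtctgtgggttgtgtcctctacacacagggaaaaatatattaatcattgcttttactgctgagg
The printed stretch of Col6a2 holds 1 GC box, that of Col5a1 2, and those of Col8a1 and Col8a2 4 each, with overlapping boxes counted apart. That of Col6a1 holds none of the 3 motifs, and that of Col3a1 holds 1 TATAAA and no GC box. The RefSeq table matched 35 of the 44 genes, with 38 starts. Col1a1, Col2a1, Col4a3, Col5a2, Col9a3, Col12a1, Col14a1, Col22a1 and Col26a1 were not matched. Over the full 250 bases, GGGCGG was found at 57.9% of collagen starts and at 32.7% of the 32851 starts of all genes, CCAAT at 34.2% and 33.8%, and TATAAA at 13.2% and 12.4%. The median GC content of these windows was 59.0% for collagens and 52.4% for all genes.

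Among the classes with members tested, type VI collagen had the widest range of summed level over the TG libraries, from 1.93 to 25.0 FPKM. Col6a1 and Col6a2, which encode its short chains and lie near each other on chromosome 10 (76708792 to 76726044 and 76595756 to 76623630 in GRCm38), were counted at 73, 74 and 66 and at 26, 56 and 25 in the WT libraries. The level of Col6a1 was 0.75, 4.18 and 4.01 for TG placebo and 1.81, 1.96 and 1.88 for NM-101, all on the log2(FPKM + 1) scale. TG placebo replicate 1 was thus the lowest of the 6 TG libraries and replicates 2 and 3 the highest, so the groups overlapped. From the steps, these levels correspond to about 28.6, 909.2 and 740.1 reads under placebo and 129.8, 139.5 and 100.4 under NM-101. Col6a2 stood at 0.92, 2.86 and 2.72 under placebo and at 1.30, 1.33 and 1.39 under NM-101, in the same order. The long-chain genes were low. Col6a3 was at 0.21, 0.46 and 0.43 under placebo and at 0.05, 0.14 and 0.14 under NM-101, so its groups did not overlap. Col6a4 was at 0.19, 1.07 and 0.97 under placebo, against 0.44, 0.19 and 0.08. Col6a5 did not follow them, with NM-101 replicate 1 the highest of the TG libraries at 0.31. Col6a6 was listed at 0 in 4 of the 6 TG libraries.

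Type IV collagen showed the same order. Col4a1 and Col4a2 encode the chains of the common basement membrane heterotrimer and start head to head on chromosome 8, with gene models that overlap (11198423 to 11312889 and 11312805 to 11449287), so reads at the shared start could be split between them. WT counts were 247, 190 and 189 for Col4a1 and 203, 226 and 193 for Col4a2. Col4a1 stood at 1.40, 3.32 and 3.38 on the log2(FPKM + 1) scale under placebo and at 2.05, 1.99 and 1.72 under NM-101. Col4a2 stood at 1.77, 3.50 and 3.60 under placebo and at 1.93, 2.00 and 1.99 under NM-101. Both genes were lowest in TG placebo replicate 1 and highest in replicates 2 and 3. Col4a5, the X-linked chain of kidney and smooth muscle basement membrane, was at 0.54, 0.61 and 0.81 under placebo and 0.52, 0.50 and 0.26 under NM-101. Col4a3, Col4a4 and Col4a6 had at most 10 counts in any WT library. Col4a3 and Col4a4, a head-to-head pair on chromosome 1, were highest in TG placebo replicate 1, at 0.27 and 0.23, whereas Col4a6 was at 0.14 there and at 0.16 in NM-101 replicate 1. Near the basement membrane, Col18a1, the source of endostatin, was at 0.88, 0.91 and 0.93 under placebo and 0.63, 0.53 and 0.53 under NM-101, with no overlap. Its close relative Col15a1 was at 0.39, 0.62 and 0.92, against 0.40, 0.44 and 0.29. Col7a1, the anchoring fibril of skin, was at 0.04, 0.45 and 0.60 under placebo and at 0.04 or less in each NM-101 library, which for the highest of these is about 2.9 reads.

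Fibrillar collagens differed in how far TG placebo replicates 2 and 3 stood above the other TG libraries. The genes of type I collagen, the main collagen of connective tissue, were even across libraries, though Col1a1 had the order of Col4a1 within a narrow range. Col1a1 stood at 0.69, 0.96 and 0.84 under placebo and at 0.82, 0.76 and 0.80 under NM-101, and Col1a2 at 1.13, 1.42 and 1.10 against 1.12, 1.12 and 1.22. Col3a1, the collagen of vessel walls and soft tissue, was at 0.19, 0.31 and 0.20 against 0.11, 0.16 and 0.18, from about 5.8 to 17.5 reads a library, with each NM-101 library just below every placebo one. The regulators of fibre thickness behaved differently. Col5a1 stood at 0.36, 1.98 and 2.33 under placebo and at 0.43, 0.46 and 0.66 under NM-101, with 47, 60 and 28 counts in WT. Col5a2 stood at 0.30, 1.66 and 1.99, against 0.44, 0.33 and 0.38. It lies beside Col3a1 on chromosome 1 (45374331 to 45503282, after 45311538 to 45349706), yet about 185.1 and 234.7 reads fell to it in TG placebo replicates 2 and 3 and 17.5 and 9.7 to Col3a1. Col11a1, known from cartilage, was at 0.36, 1.23 and 1.35 under placebo and at 0.54, 0.56 and 0.28 under NM-101. Col11a2, its partner chain, was at 1.44, 2.21 and 2.34, against 1.53, 1.15 and 1.52. Col5a3 (0.32, 0.99 and 1.09), Col27a1 (0.495, 0.876 and 0.889) and Col24a1 (0.06, 0.35 and 0.43) were also highest in TG placebo replicates 2 and 3. The NM-101 libraries had at most 0.38 for Col5a3, 0.488 for Col27a1 and 0.02 for Col24a1. Col2a1, the main collagen of cartilage, had 8, 9 and 3 WT counts and stood at 0.58 at most.

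**Figure D2:**
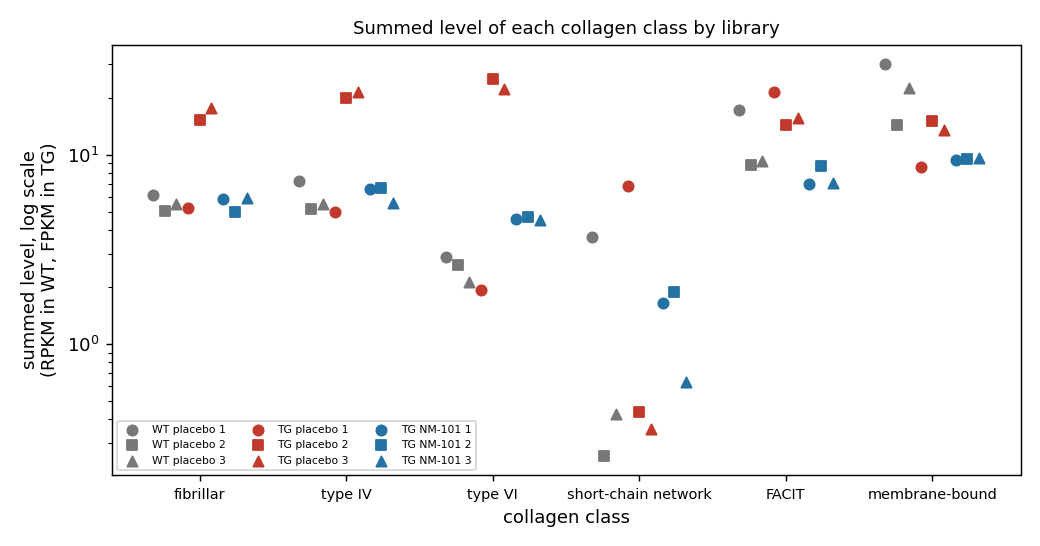
Summed level of 6 collagen classes in each library (RPKM for WT, FPKM for TG, normalized separately, log axis), with colour for the group and marker shape for the replicate. TG placebo replicates 2 and 3 reached 25.0 and 22.3 for type VI, against 1.93 in replicate 1 and 4.54 to 4.71 under NM-101, and the short-chain class was highest in TG placebo replicate 1 (6.83) and WT replicate 1 (3.69).

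Col25a1 was the best counted member, with 2071 of the 2427 WT counts of the membrane-bound class. Col25a1, a transmembrane collagen of neurons whose shed form is found in amyloid plaques, had 814, 557 and 700 counts in WT, from a gene of 419527 bases on chromosome 3. It was even across the TG libraries, at 3.03, 3.45 and 3.29 on the log2(FPKM + 1) scale under placebo and 3.12, 3.07 and 3.13 under NM-101. The WT level per length, 4.35 ± 0.56 (SD, n = 3), rests on a length that GENCODE gives for 1 transcript and that 2 of its RefSeq transcripts were matched to, so it is not compared with TG, and the WT sums of the membrane-bound class carry the same doubt. Col23a1, another transmembrane collagen, was at 0.91, 2.55 and 2.40 under placebo and at 1.33, 1.54 and 1.43 under NM-101, again with replicate 1 lowest. Col13a1, a collagen of the neuromuscular junction and adhesion sites, was at 0.41, 0.38 and 0.55 under placebo and 0.11, 0.08 and 0.15 under NM-101. Its groups did not overlap, on about 9.9 to 16.9 reads a placebo library and 2.0 to 3.0 under NM-101. Col17a1, of skin hemidesmosomes, had 10, 0 and 1 WT counts, and the 0 allows up to 3 counts. Col19a1, a FACIT made by some interneurons, had 156, 189 and 122 counts in WT. It stood at 0.69, 2.29 and 2.48 under placebo and at 1.01, 1.02 and 1.19 under NM-101.

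Among the other FACITs, Col16a1 (0.83, 1.67 and 2.02), Col12a1 (0.27, 1.00 and 1.09), Col20a1 (0.22, 0.86 and 0.88) and Col22a1 (0.36, 0.73 and 0.64) were highest in TG placebo replicates 2 and 3. Their NM-101 libraries ran up to 0.95, 0.41, 0.41 and 0.23. Col9a2, a chain of cartilage type IX collagen, was at 1.25, 1.44 and 1.53 under placebo and at 1.10, 0.89 and 1.20 under NM-101, without overlap. Col14a1 and Col9a1 stayed at 0.235 or less in every TG library. Col26a1, which belongs to none of these classes, had 19, 27 and 14 WT counts and stood at 0.37, 0.95 and 1.17 under placebo and at 0.67, 0.33 and 0.69 under NM-101.

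Col9a3, Col8a1 and Col8a2 followed another order. Col9a3 stood at 4.24, 2.30 and 2.08 under placebo and at 2.07, 2.64 and 1.85 under NM-101, and its WT counts were 303, 72 and 135. Col8a1 and Col8a2, short-chain collagens that form sheets in the vessel wall and the cornea, had 89, 5 and 8 and 94, 10 and 15 counts in WT. Col8a1 was at 1.98, 0.10 and 0.29 under placebo and at 0.22, 0.63 and 0.14 under NM-101, and Col8a2 at 2.24, 0.34 and 0.18 against 1.28, 1.18 and 0.58. All 3 genes were highest in TG placebo replicate 1 among TG libraries and in replicate 1 among WT libraries. Markers of the choroid plexus had the same extremes. The summed level of the 8 markers, on the log2(sum + 1) scale, was 11.58, 2.45 and 4.56 in WT, 12.17, 3.37 and 4.03 under placebo and 5.49, 10.03 and 6.15 under NM-101. Its defining gene Ttr, the transthyretin of the cerebrospinal fluid, stood at 12.14 in TG placebo replicate 1 and at 2.65 and 3.60 in replicates 2 and 3. Folr1, Kcne2 and Otx2 had 0 counts in WT replicate 2, and Folr1 was listed at 0 in TG placebo replicate 3. Within the NM-101 group, replicate 2 had the highest choroid plexus sum and the highest Col8a1 and Col9a3, but Col8a2 was highest in replicate 1. The part of choroid plexus RNA in these 3 collagens was not tested.

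**Figure D3:**
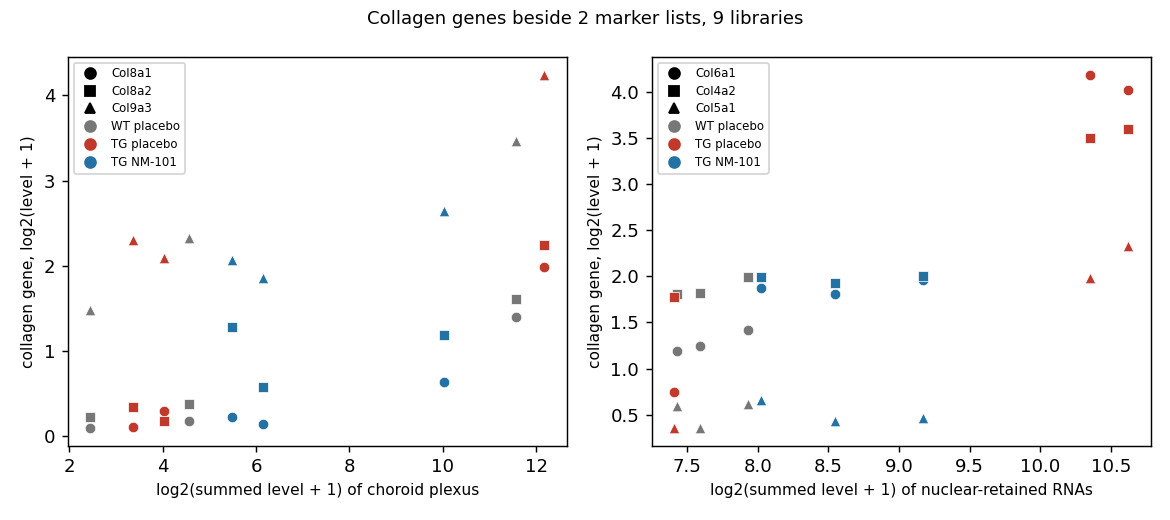
Level of 3 collagen genes in each of the 9 libraries (vertical axis, log2(level + 1)) against the summed level of choroid plexus markers (left) and of 10 nuclear-retained RNAs, the same in every library (right), with colour for the group. On the left the libraries with summed levels of 11.58 and 12.17 have the highest Col8a1, Col8a2 and Col9a3, and on the right those with 10.35 and 10.62 have the highest Col6a1, Col4a2 and Col5a1. The list on the right and the collagens shown were picked after their values were seen, so the match is no test.

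Within the TG genotype, NM-101 was set against placebo to see the effect of treatment. In limma, 0 of the 13 collagen genes tested passed an adjusted p of 0.05, where 0.134% of the 12699 genes tested did. At an unadjusted p under 0.05, 1 member was lower (Col11a2), against 4.17% of all genes, and 0 were higher, against 10.7%. Without the variance trend and robust shrinkage limma also called 0, with 2 at an unadjusted p under 0.05. All 13 estimates were negative, with a median difference of -0.69 against 0.03 over all genes tested. This is no support for a fall, since Col5a1 and Col16a1 passed the level filter through the placebo libraries alone and the 13 share the same libraries. Col6a1 had means of 2.98 ± 1.93 and 1.88 ± 0.08 (SD, n = 3), a difference of -1.10 with a standard error of 1.03 and a limma adjusted p of 0.653. For Col5a1 the difference was -1.04 ± 0.49 (SE; limma adjusted p = 0.377), for Col4a2 -0.98 ± 0.48 (0.397) and for Col11a2 -0.59 ± 0.25 (0.314). For Col1a2 it was -0.06 ± 0.16 (SE; limma adjusted p = 0.877) and for Col25a1 -0.15 ± 0.13 (0.623). Groups did not overlap for 1 of the 13, Col9a2, with NM-101 lower, against 5.98% of genes in that direction, and for 0 with NM-101 higher, against 13.6%.

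With no filter on level all 44 members could be fitted. Again 0 passed in limma, against 0.0214% of 18715 genes, and 9 were lower at an unadjusted p under 0.05, against 3.98%, and 0 higher, against 7.97%. Differences were negative for 41 of the 44 and positive for 3, against 9163 and 9552 of the 18715 genes, with a median of -0.31 against 0.0. Members share the same libraries, and the 3 placebo libraries differed among themselves, so these signs give no support for a fall either. Groups did not overlap for 11 of the 44, each with NM-101 lower, against 5.71% of all genes, and for 0 with NM-101 higher, against 10.4%. The 11 were Col3a1, Col24a1, Col27a1, Col4a5, Col18a1, Col7a1, Col6a3, Col9a2, Col14a1, Col22a1 and Col13a1. Apart from Col9a2 they lay under the level set for testing. Their differences ran from -0.08 (Col3a1) to -0.35 (Col18a1 and Col22a1). Some separations were narrow. Col14a1 had about 6.8 reads in TG placebo replicate 1 and at most 5.9 under NM-101, and Col24a1 about 2.9 against at most 1.0. Col27a1 was at 0.495 in TG placebo replicate 1 and at 0.488 in NM-101 replicate 1. Others were wider, as for Col18a1, at 0.877 or more under placebo and 0.628 or less under NM-101.

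The 3 placebo libraries differed among themselves. Against the NM-101 mean, the 13 tested members had medians of -0.16, 1.12 and 1.14 in TG placebo replicates 1, 2 and 3, where all genes had -0.05, -0.04 and -0.03. In replicate 2, 7 of the 13 lay over 1 above the NM-101 mean, against 1.17% of all genes, and in replicate 3 also 7, against 1.60%. In replicate 1 it was 1, Col9a3, against 0.567%. The counts of replicates 2 and 3 include Col5a1, and that of replicate 3 also Col16a1. These 2 members passed the level filter through the placebo libraries alone. Col6a1 ranked 15 and 23 of 12699 genes by its difference in replicates 2 and 3 and 12657 in replicate 1, and Col9a3 ranked 23 in replicate 1. Over the 40 detected members the medians were -0.01, 0.37 and 0.45, and 16, 32 and 31 of them lay above all 3 NM-101 libraries, where 21.7%, 29.1% and 31.6% of the 18715 genes did. The sets are not alike, since the 18715 include genes at 0 in some libraries and the 40 do not.

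**Figure D4:**
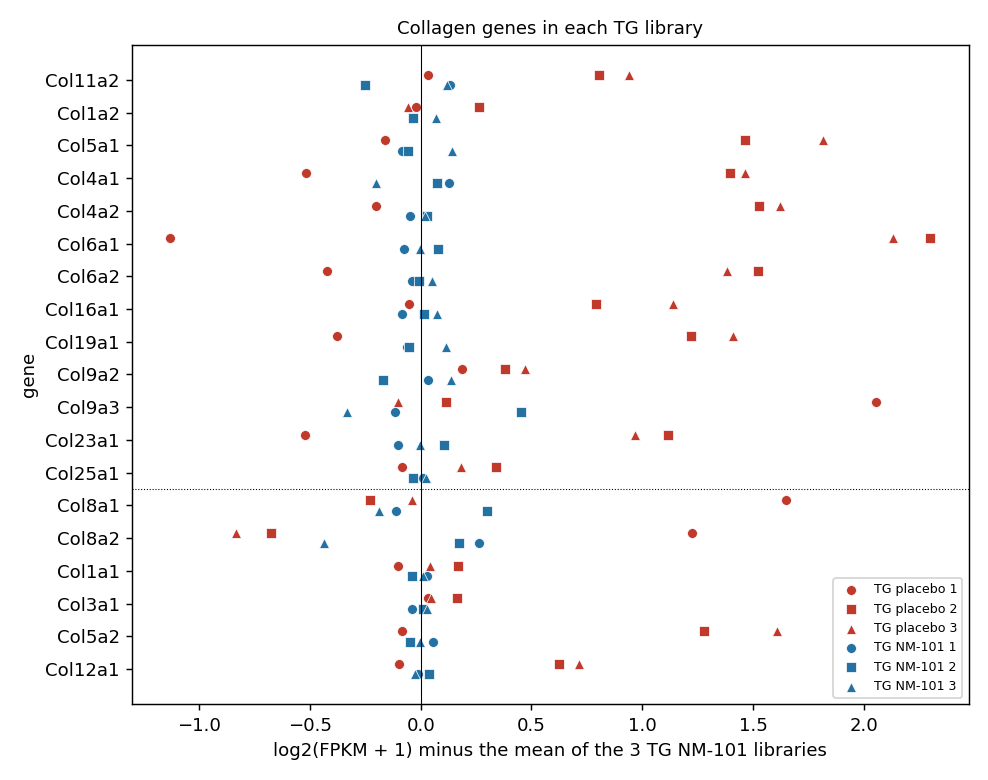
Difference of each TG library from the mean of the 3 NM-101 libraries on the log2(FPKM + 1) scale, for the 13 tested collagen genes (above the dotted line) and 6 that were below the level tested. Colour gives the group and marker shape the replicate; TG placebo replicates 2 and 3 reach 2.30 and 2.13 for Col6a1, while replicate 1 lies at -1.13 for Col6a1 and at 2.05 for Col9a3.

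What was called depended on the placebo libraries kept. Without TG placebo replicate 1, 9 of 13 members were lower in limma, against 8.17% of all genes (17.8% were called in either direction). These were Col11a2, Col16a1, Col19a1, Col23a1, Col4a1, Col4a2, Col5a1, Col6a1 and Col6a2, with Col6a1 at -2.22 (limma adjusted p = 1.28e-05) and Col4a2 at -1.58 (0.000105). Col16a1 and Col5a1 among them passed the level filter through the placebo libraries alone. All 9 calls rest on the same placebo libraries, replicates 2 and 3, so they give no support for a fall. Without both replicates 2 and 3, a fit that assumes the single placebo library left to vary like the NM-101 ones, Col6a1 was higher under NM-101 by 1.13 (limma adjusted p = 0.0395) and Col9a3 lower, at -2.05 (0.0176). These were 2 of 11 members tested, against 0.435% of genes higher and 0.395% lower. The sign of Col6a1 thus turned with the libraries kept.

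Other measures moved with these libraries. A list of nuclear-retained RNAs, assembled after the values were seen and with 11 of 12 members in the table, was summed over the 10 that have a level in every library, which leaves out Rian. These sums were 7.41, 10.35 and 10.62 in the TG placebo libraries, 8.55, 9.17 and 8.02 under NM-101 and 7.43 to 7.93 in WT. Malat1, a nuclear long noncoding RNA, stood at 6.11, 9.00 and 9.48 under placebo and at 7.59, 7.65 and 7.09 under NM-101. Rnu11 and Rnu12 of this list were at 0 in all 3 WT libraries. Rnu11 was also listed at 0 in TG placebo replicate 1 and NM-101 replicates 1 and 3, and Rnu12 in all 3 NM-101 libraries. Rnu11 stood at 6.66 and 6.84 in TG placebo replicates 2 and 3 and was highest in NM-101 replicate 2, at 7.79. The 12 endothelial markers summed to 6.94, 7.17 and 7.23 under placebo and to between 6.47 and 6.88 under NM-101. Without Slc2a1, the highest of them, they summed to 6.35, 6.83 and 6.91, against 6.07 to 6.45. The 10 markers of pericytes and smooth muscle summed to 5.53, 5.83 and 5.80, against 5.48 to 5.64. Without Vtn, the highest, they summed to 4.81, 4.71 and 4.66, against 4.40 to 4.88, so placebo replicate 1 was no longer below replicates 2 and 3. Single endothelial markers lay above the NM-101 mean by a median of 0.03, 0.52 and 0.57 in placebo replicates 1, 2 and 3. Oligodendrocyte markers summed to 12.26, 10.67 and 10.61 under placebo and to 11.87, 11.01 and 11.43 under NM-101. The 11 markers of meningeal fibroblasts summed to 9.88, 9.41 and 9.26, against 9.67 to 10.21, mostly from Ptgds. Without Ptgds they summed to 6.88, 6.75 and 6.46 under placebo and to between 6.11 and 6.76 under NM-101. Among them Dcn stood at 3.83, 5.77 and 5.59 under placebo and Igf2 at 6.02, 3.38 and 3.10, in opposite orders. No marker of these 3 lists was at 0 in any library. Collagen transcripts are also rich in G and C, with a median of 55.4% over the members and 50.5% over all genes tested. Among 5207 genes in the GC range of the tested collagens (51.9% to 62.9%), the median difference from the NM-101 mean was 0.03 and 0.04 in TG placebo replicates 2 and 3, and 1.34% and 1.69% lay over 1 above it. The part of nuclear RNA, vessel content, oligodendrocyte content and GC content in the collagen values was not tested.

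The effect of genotype falls between the placebo groups of TG and WT. Levels set across the separately normalized columns gave a median difference of 0.23 over the 40 detected members, and also 0.23 without Col25a1, whose WT length is in doubt. By library the medians against the WT mean were 0.00, 0.29 and 0.42, and 12, 27 and 29 of the 40 lay above every WT library. Set beside them were the 12463 genes with a mean of at least 1 over the TG libraries and a known length. Those genes had medians of 0.02, 0.05 and 0.06, with 37.6%, 41.6% and 42.9% above every WT library. They are not a like set, since most of the 40 lay under that level. Under NM-101 the medians were -0.01, -0.02 and -0.03, with 9, 9 and 6 members above every WT library, where 41.6%, 40.6% and 40.9% of the 12463 genes were. Col6a1 was at 1.42, 1.19 and 1.24 on the log2(RPKM + 1) scale in WT, above TG placebo replicate 1 and below the other 5 TG libraries. Col4a2, at 1.99, 1.80 and 1.82 in WT, lay near the NM-101 libraries and TG placebo replicate 1. Col3a1, at 0.37, 0.43 and 0.40 in WT, stood above all 6 TG libraries. Such differences also carry any gap between the GENCODE length and the length the authors used, which is not given in the sources used here.

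Genes that make, bind or remove collagen were described from 5 lists. Of their 47 tested members 0 passed in limma, where 0.134% of all genes tested did. At an unadjusted p under 0.05 there were 4 with a positive difference and 4 with a negative one, where 10.7% and 4.17% of all genes had one. Of 30 genes of biosynthesis and crosslinking 22 were tested, 16 with a negative and 6 with a positive difference, and a median of -0.10. Colgalt1, which adds galactose to hydroxylysine, was at 3.76, 4.31 and 4.37 under placebo and 3.82, 3.30 and 3.05 under NM-101 (-0.76, limma adjusted p = 0.212). P4ha3, a prolyl hydroxylase subunit, went the other way at 0.47 (limma adjusted p = 0.258), and P3h3, a prolyl 3-hydroxylase family member, was at -0.74 (0.295). The chaperone Serpinh1, which binds procollagen in the endoplasmic reticulum, was at 3.27, 2.76 and 2.47 against 3.22, 2.92 and 2.66. Chosen after their values were seen, Bmp1, which trims procollagen, stood at 2.33, 4.09 and 4.17 and Pxdn, which crosslinks type IV collagen, at 2.28, 4.06 and 4.32 under placebo. The NM-101 libraries lay between 2.27 and 2.93 for this pair, near placebo replicate 1. Pcolce and Pcolce2, enhancers of procollagen processing, stood instead at 3.32 and 3.30 in TG placebo replicate 1. They were at no more than 2.25 in the other TG libraries. Against the NM-101 mean, placebo replicate 1 lay higher by 1.81 for Pcolce and by 1.27 for Pcolce2.

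Of 16 partners in the basement membrane 6 were tested, with a median of -0.18. Sparc, a collagen-binding glycoprotein, was at 0.35 (limma adjusted p = 0.317), the laminin chain gene Lamb1 at -0.30 (0.322) and the heparan sulfate proteoglycan gene Agrn at -0.62 (0.406). Agrn stood at 3.31, 4.53 and 4.51 under placebo and at 3.56, 3.54 and 3.39 under NM-101, in the order of Col4a1. Of 12 receptors 5 were tested, with a median of 0.02. The inhibitory immune receptor Lair1 was at 0.39 (limma adjusted p = 0.279), Ddr2, a receptor tyrosine kinase for collagen, at 0.16 (0.649) and Adgrg1, an adhesion receptor, at -0.08 (0.862). Of 13 genes of breakdown 6 were tested, with a median of -0.07. Timp4, an inhibitor of matrix metalloproteinases, was higher in each NM-101 library (5.73, 5.86 and 5.63) than in any placebo library (5.43, 5.23 and 5.09), with a limma adjusted p of 0.117. Mmp15, a membrane-type metalloproteinase, was at -0.37 (limma adjusted p = 0.289) and Timp3, an inhibitor bound to the matrix, at 0.24 (0.502). Of 10 collagen-binding matrix proteins 8 were tested, with a median of -0.15, and Lum (-0.21), Fbln1 (0.19) and Tnxb (-0.30) had limma adjusted p-values of 0.563, 0.604 and 0.609. Dcn, a proteoglycan of collagen fibres, was lowest in TG placebo replicate 1, at 3.83 against 4.56 to 5.77 in the other TG libraries. Without TG placebo replicate 1, 14 of 48 listed genes passed, 3 higher and 11 lower. Of all 12729 genes in that fit 1222 were higher and 1040 lower, which is 17.8% in either direction and 8.17% lower. Lower in that fit were Bmp1 (-1.65), Pxdn (-1.42), P3h3 (-1.12), Agrn (-1.02), Colgalt1 (-0.95), P3h1 (-0.66), Tnxb (-0.63), Fn1 (-0.57), Plod2 (-0.55), Adamts3 (-0.53) and Reck (-0.48), and higher were Timp4 (0.58), Sparc (0.45) and Timp3 (0.42).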

How the data were processed

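Per the labels' protocols, an Rneasy FFPE kit, meant for paraffin-embedded tissue, gave the RNA, and a QuantSeq kit, which reads the 3′ end, gave the libraries. The submitters' processing notes name Bowtie2 and mm10. The counting program, annotation and use of strand have no source here, so reads of overlapping or antisense genes cannot be told apart. The deposited WT columns hold counts per transcript. The deposited TG columns hold log2 values. Back on a linear scale, over 17075 transcripts, they rose with WT CPM (slope 0.925, log2 scales) and dropped with transcript length (slope -0.823), so they are read as log2(FPKM + 1). The TG depths were those that brought the low values of single-transcript genes nearest to whole reads. At these depths 83.5% to 86.2% of these values lay within 0.2 of a whole read. That share follows from the choice of depth and is no separate check on it. Read numbers given for the TG libraries are estimates from these depths.

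Symbols came from a RefSeq table of GRCm38.p6, where 32394 transcripts were found and 905 were not, which entered under their own IDs. Linear values were summed per gene and written as log2(value + 1), a pseudocount of 1 that understates changes of low genes. Genes with a mean of at least 1 over the 6 TG libraries were fitted with limma 3.58.1 (variance trend, robust) in R 4.3.3, with Benjamini-Hochberg adjustment over all genes tested, after a check on simulated data. WT counts were divided by library total and by GENCODE M21 length. With reads from the 3′ end, counts need not grow with transcript length, so levels per length can set long transcripts too low. This bears on which members reached the level tested and on the class sums. The collagen members, the lists and the tests were chosen with earlier results of these data known. All collagen members are accounted for. In each pathway list the genes that passed and the 3 with the smallest p-values are named, and Bmp1, Pxdn, Pcolce, Pcolce2, Serpinh1 and Dcn were named after their values were seen. Marker lists of oligodendrocyte precursors, astrocytes, microglia and blood were computed too, with summed levels over all libraries of 5.96 to 6.25, 10.17 to 11.39, 7.88 to 8.29 and 0.45 to 2.97. Alternatives were another pseudocount, other filters, median-ratio scaling, 1 transcript per gene, a plain limma fit, a replicate block and leaving out libraries. An added list of splicing factors and genes with retained introns summed to 8.44, 9.39 and 9.49 in the TG placebo libraries, 8.53 to 8.74 under NM-101 and 8.56 to 8.82 in WT.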

Additional observations from a re-analysis of the deposited data

How the results depend on the processing

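The count of all genes called, 17, was 17 with a pseudocount of 0.1, 4 with no filter on low values, 0 with only genes above 0 in all 6 libraries (limma gave 1362 positive and 532 negative differences with unadjusted p under 0.05), 4 with median-ratio scaling, 7 with 1 transcript per gene, 4 with plain limma, 2 to 2262 without single libraries, the highest without TG placebo replicate 1, and 105 without both TG placebo replicates 2 and 3, a setting chosen after seeing the data. Collagen calls were 0 under every setting except 9 without TG placebo replicate 1 and 2 without replicates 2 and 3, and calls in the 5 pathway lists likewise 0 except 14 and 2. Replicate numbers gave correlations of deviations of 0.04, -0.03 and -0.02 between same-numbered TG libraries and so share only a number. With the replicate number as a block 3 genes and 0 collagens were called. Of 177 recomputed differences of the 13 tested collagens, 159 kept their sign and side of the threshold, 10 passed it and 8 turned. Without replicates 2 and 3 the differences turned positive for Col1a2 (0.02), Col23a1 (0.52), Col25a1 (0.08), Col4a1 (0.52), Col4a2 (0.20), Col6a1 (1.13) and Col6a2 (0.42). Col1a2 ran from -0.12 to 0.04 without single libraries. The cause was not tested. WT collagen CPM stayed between 180.9 and 231.3, and the median of TG placebo against WT between 0.19 and 0.35 (0.23 without Col25a1, a setting also chosen after seeing the data). For 31 of 44 members the level was under that tested, and counting noise limits those with few reads.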

Other observations

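For Col4a5, Col13a1 and Col18a1, the transcript that took most of the reads changed between WT libraries. It also changed, on at most 9 WT counts a library, for Col2a1 and Col6a6. For Col9a1 and Col6a3 it was 1 and the same in all 9 libraries. All WT counts of Col4a5 went to 1 transcript in replicate 1 (28 against 0) and to the other in replicates 2 and 3 (0 against 41 and 0 against 24). For Col13a1 the counts were 6, 9 and 0 for 1 transcript and 0, 0 and 8 for the other, and for Col18a1 they were 0, 18 and 0 against 41, 8 and 21. In the TG libraries the shorter transcript of Col18a1 was listed at 0 in 4 of 6. Values above are sums over the transcripts of a gene, and no statement is made about isoforms.

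The collagen genes were long and split into many exons, with a median span of 114410 bases against 24510 for all genes tested. Col6a1, which had the largest SD over the TG placebo libraries of the 44 members, spans 17253 bases, and Col25a1, which was even across them, 419527. Across 12491 genes the Pearson correlation of the difference from the NM-101 mean with GC content was 0.11, 0.16 and 0.16 in TG placebo replicates 1, 2 and 3, given as a description, since genes share libraries and are not replicates.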
